A study of Mus musculus with 34 samples.

Results

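Odorant, vomeronasal and taste receptor genes formed 262 of the 12595 genes (2.08%) listed in the RNA sequencing table of MOSJ-Dkk1 tumours. They were taken by symbol, as every row beginning Olfr, Vmn1r, Vmn2r, Taar, Tas1r or Tas2r followed by a digit. There were 160 odorant receptor genes (Olfr), 29 genes of the first vomeronasal family (Vmn1r) and 73 of the second (Vmn2r). No Taar (trace amine receptor), Tas1r (sweet and umami taste) or Tas2r (bitter taste) gene was listed. Of the 262, 11 carried a pseudogene suffix, and 31 further rows with symbols such as Vmn1r-ps fell just outside the pattern. In the table of cultured MOSJ-Dkk1 cells, the same pattern found 20 of 16576 genes, of which 4 were in both tables.

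These genes encode G protein-coupled receptors that detect odours, pheromones or tastants, and they are known for restricted use. An olfactory neuron of the nasal epithelium typically expresses a chosen odorant receptor and keeps the rest silent, vomeronasal neurons do the same with their families, and taste receptors are used mainly by taste cells. The odorant receptor signal runs through the G protein subunit Gnal, the adenylate cyclase Adcy3 and a cyclic nucleotide-gated channel, and the vomeronasal signal through the channel Trpc2. Bone and sarcoma cells are not a classical site of either pathway.

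All tumours and cultures described here came from MOSJ-Dkk1, a mouse bone and cartilage tumour line with a lentiviral transgene, driven by the CMV promoter, for human Dkk-1, which inhibits Wnt signalling outside the cell. The tumours grew in hind limbs of nude mice (NU/J, about 2 months old at injection, without a working thymus), with 4 tumours in each of 4 groups: vehicle (NT), doxorubicin (DRB), a vivo morpholino against human Dkk-1 (DkkMo) and the combination of DRB and DkkMo. Mice were fixed by perfusion with formaldehyde, and RNA was taken with a protocol for fixed, embedded tissue, whereas culture RNA came from frozen pellets. Tumour tissue also holds host stroma, blood vessels and immune cells, and in such bulk samples fewer cells of a type and less RNA per cell cannot be told apart. The cultures were either growing in log phase or nutritionally stressed, with no morpholino (NT), DkkMo or a scrambled morpholino (scrMo), in 3 libraries a group. In the tumours, 11 of 15 bone and sarcoma genes were listed, Col1a1, Runx2 and Alpl among them, but Bglap, Ibsp, Postn and Twist1 were not.

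The tumour libraries held 26.9 to 125 M reads on listed genes (M, 1000000 reads), and the groups differed in depth, with 85.3 to 106 M for DRB, 53.8 to 125 M for NT, 26.9 to 52.1 M for DkkMo and 28.3 to 41.1 M for the combination. The 10 genes with the most reads took 46.7 to 73.5% of the reads of DRB tumours, 8.51 to 38.7% in NT, 14.5 to 24.2% in DkkMo and 13.5 to 18.6% in combination tumours. Of 10 genes that nearly every cell uses, 3 were listed in the tumours (Actb, Eef1a1 and Rplp0) against 10 in the cultures. These 3 held 0.0476 to 0.503% of the reads of DRB tumours and 0.00338 to 0.0372% of those of combination tumours. The NT group was uneven: its replicate 2 resembled the DkkMo and combination tumours over the receptor genes, with rank correlations of 0.74 to 0.85, whereas those of its replicate 1 were 0.43 to 0.60. Over all listed genes they were 0.80 to 0.89 for replicate 2 and 0.57 to 0.65 for replicate 1, and lowest for replicate 4 (0.21 to 0.38).

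The families were not listed in equal measure. Of the annotated Vmn2r genes (GENCODE, GRCm38), 72 of 121 (59.5%) were listed, against 28 of 210 Vmn1r genes (13.3%), 158 of 1407 Olfr genes (11.2%) and 9009 of 20434 other protein-coding genes (44.1%). None of 16 Taar, 3 Tas1r and 40 Tas2r genes was listed. A symbol match was found for 258 of the 262 genes. Within each family, the listed genes were the longer ones by annotated exons, with medians of 3241 against 2483 bases for Olfr, 5396 against 2833 bases for Vmn1r and 7779 against 6050 bases for Vmn2r. This was not particular to receptor genes: other protein-coding genes had medians of 5211 bases when listed and 2588 bases when not. The unlisted Taar and Tas2r genes had median exonic lengths of 1046 and 956 bases. Among the listed receptor genes themselves, exonic length hardly ranked with the mean level (Spearman 0.11 over 258 genes).

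**Figure D1:**
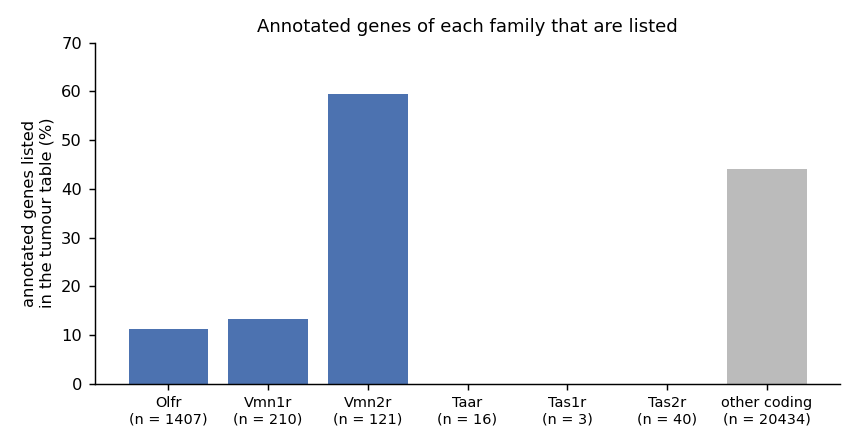
Share of annotated genes of each receptor family, and of other protein-coding genes, that are listed in the tumour table (bars, in percent of annotated genes; n is the number annotated). Vmn2r stands at 59.5%, Olfr and Vmn1r at 11.2 and 13.3%, and the other 3 receptor families at 0.

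Odorant receptors share a conserved coding stretch, known as the DRY motif with the residues before it, at the end of the third transmembrane segment. It was searched as a run of 18 bases, with any base taken where members vary, on the sense strand of the annotated transcripts. They occurred in 68 of 158 listed Olfr genes (43.0%), in 505 of 1249 unlisted ones (40.4%) and in 8 of 20434 other protein-coding genes (0.0392%). Among the genes described in the following paragraphs, the search found no window in Olfr519, Olfr545, Olfr374, Olfr318 and Olfr1372-ps1. For 6 other Olfr genes described there, windows of 30 bases are given 5′ to 3′, with the codons of the DRY motif in capitals. The windows are from the annotation and not from the reads.
Olfr749: atggcttatGATAGGTACctggccatttgc
Olfr150: atggcatatGACCGCTATgtcgccatttgt
Olfr30: atggcttatGACCGTTACgtggctatctgc
Olfr56: atggcttatGATCGCTATgtggccattagc
Olfr1295: atggcttatGACCGCTATgtagccatctgc
Olfr905: atggcctatGATCGCTATgtggccatttgt
Between pairs of these windows 22 to 27 of 30 bases were identical, with a median of 25. The bases fixed by the search were identical by design, so these counts do not measure how conserved the stretch is. Over whole transcripts, a median of 8.82% of the 31-base words of listed Olfr genes also occurred in another gene, against 13.3% for Vmn1r and 28.3% for Vmn2r. Whether reads of close Vmn2r paralogues were split between them was not tested.

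The listed receptor genes were read in most tumours, which the listing itself may partly fix. Each had reads in at least 8 of the 16 tumours, and each of all listed genes in at least 6. Receptor genes that were not listed are not counted here. Between 219 and 258 of the 262 had at least 1 read in a tumour, with group medians of 255 in NT, 250.5 in DRB, 239.5 in DkkMo and 244 in combination tumours. At the depth of the shallowest library these medians were closer together, at 242.9, 241.7, 238.4 and 242.4 in the same order. Of the 262, 168 (64.1%) had reads in all 16 tumours, against 69.6% of all listed genes. Levels were given as normalised counts, which are reads divided by the size factor of the library. The median gene had a median of 252 normalised counts, against 522 over all listed genes. Per kilobase of exon, the median receptor gene had a mean of 137 normalised counts and the median other protein-coding gene 330. By this measure Olfr genes stood at 165, Vmn1r genes at 121 and Vmn2r genes at 114.

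Spread between tumours was no wider than for other genes. The median SD of the deposited log2 values over 16 tumours was 1.19 for receptor genes and 1.32 for all listed genes, and the median share of a gene's total held by its highest tumour was 26.7% against 30.2%. In 33 receptor genes (12.6%) a single tumour held over 50% of the total, against 20.8% of all listed genes. The rank order of receptor genes was shared best within DkkMo tumours (Spearman 0.69 to 0.81 over 262 genes, 6 pairs) and within combination tumours (0.72 to 0.80), and less within NT (0.50 to 0.76) and DRB tumours (0.45 to 0.54). Between DkkMo and combination tumours it was 0.66 to 0.80. Over all listed genes the corresponding ranges were 0.73 to 0.83, 0.77 to 0.85, 0.25 to 0.76 and 0.54 to 0.64. These are correlations across genes, which are not independent, and they also carry differences in gene length and depth.

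The share of reads on receptor genes differed between groups. In reads per 1000000 reads on listed genes (RPM), NT tumours had 6528, 11520, 7097 and 2111, DRB tumours 1631, 2148, 3290 and 4132, DkkMo tumours 9067, 9073, 11057 and 11747, and combination tumours 11296, 10866, 11037 and 11926. All DkkMo and combination tumours thus lay above all DRB tumours, and the NT tumours spanned nearly the whole range. The means were 6814 ± 3848 in NT, 2800 ± 1127 in DRB, 10236 ± 1376 in DkkMo and 11281 ± 465 in combination tumours (SD, n = 4 each). In the 18 cultures, the 20 receptor genes listed there held 39.7 to 77.6 RPM. Only 4 of them were among the 262 listed in the tumours, so these shares cover different genes and were not compared. As shares of the reads, receptor genes held 0.211 to 1.15% in NT, 0.163 to 0.413% in DRB, 0.907 to 1.17% in DkkMo and 1.09 to 1.19% in combination tumours. The 11 listed bone and sarcoma genes held 0.0920 to 2.40%, 0.133 to 0.753%, 0.0717 to 0.281% and 0.0772 to 0.306% in the same order, so that the ranges of both sets overlapped in NT and DRB tumours and not in the other groups. No test was made of these sums.

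The order of the groups depended on the scaling. As summed normalised counts, NT tumours had 300858, 275976, 557932 and 309611, DRB tumours 364462, 504567, 352038 and 339265, DkkMo tumours 256952, 249533, 366572 and 374937, and combination tumours 328151, 375290, 305311 and 322963. Here all 4 groups overlapped. The log2 ratio of combination to DRB means was -0.23 with size factors and 2.01 in RPM, that of DRB to NT 0.11 and -1.28, and that of DkkMo to NT -0.21 and 0.59. With size factors, the ratio of DRB to NT turned to -0.04 without DRB replicate 2, and that of DkkMo to NT to 0.08 without NT replicate 3. Of the 262 genes, 115 had their highest tumour in the DRB group by normalised count, and 28 by RPM. The share taken by the 10 most read genes, given above, was highest in DRB tumours, but within NT it did not run with the RPM. In NT replicates 1 to 4 that share was 23.6, 8.51, 38.7 and 15.1%, at depths of 53.8, 77.7, 69.3 and 125 M. The same tumours had 6528, 11520, 7097 and 2111 RPM. The part of that share and of the depth in these differences was not tested.

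**Figure D2:**
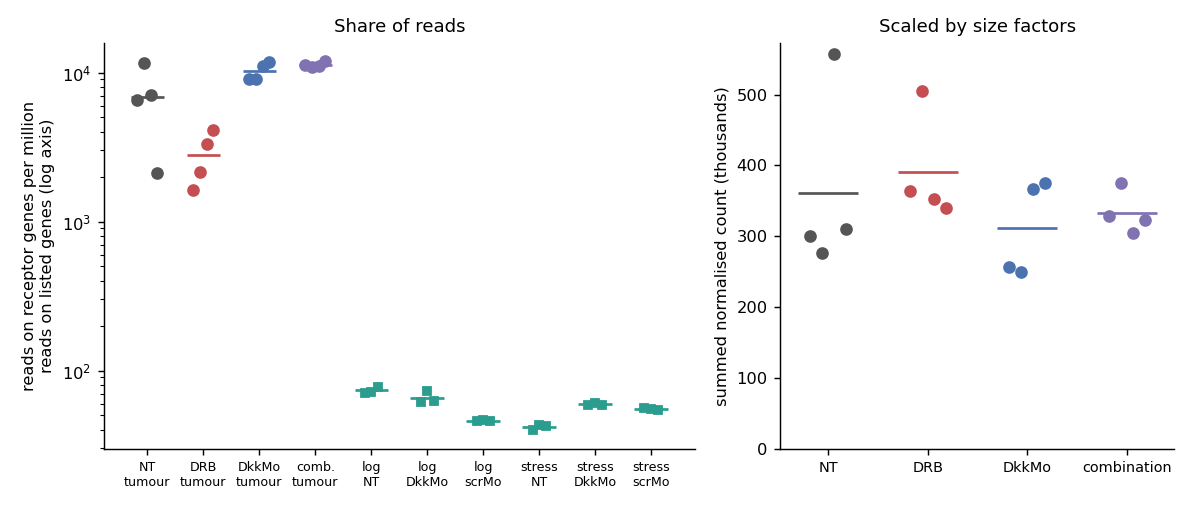
Left, reads on the receptor genes listed for tumours (circles) or for cultures (squares), in RPM (log axis), with group means as lines. The listed genes differ between tumours and cultures, with 4 in both. Right, the summed normalised count of the 262 genes for each tumour, axis in units of 1000 from 0; DRB tumours are lowest on the left (1631 to 4132) but overlap all other groups on the right.

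The median of receptor genes was also set against the median of all listed genes in the same tumour. On the deposited log2 scale, the difference was -1.09, -0.20, -0.55 and -2.93 in NT, -1.94, -0.94, -0.96 and -0.59 in DRB, -0.47, -0.54, -0.53 and -0.29 in DkkMo and -0.41, -0.41, -0.41 and -0.33 in combination tumours. Every DRB tumour lay below every DkkMo and combination tumour. The medians of the receptor genes alone were closer together, between 8.31 and 9.43 in the 16 tumours, than those of all genes, between 8.95 and 11.24. The largest gap was in NT replicate 4, where the median of all genes was highest and that of receptor genes lowest.

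**Figure D3:**
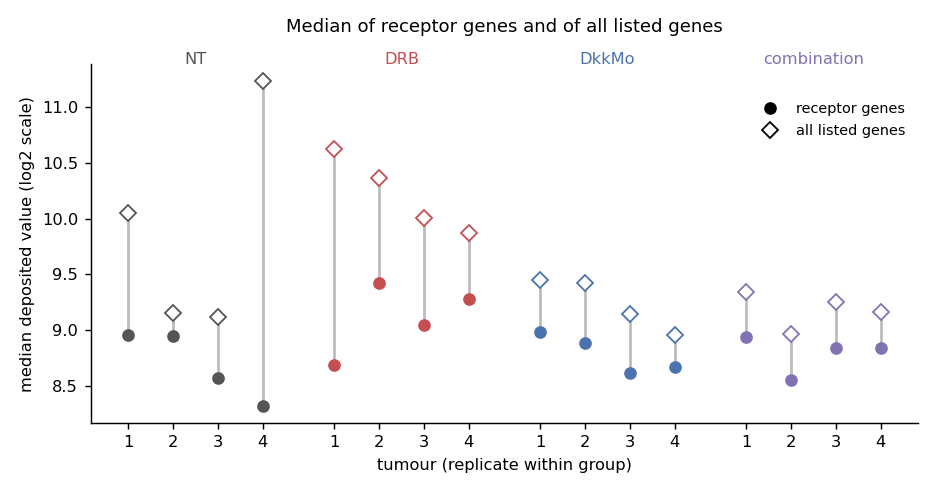
Median deposited log2 value of the 262 receptor genes (filled) and of all 12595 listed genes (open) in each tumour, joined by a line. The lines are short in DkkMo and combination tumours (gaps of 0.29 to 0.54) and longest in NT replicate 4 (2.93).

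The 5 genes with the highest mean level were Vmn2r96, Vmn2r76, Vmn1r76, Olfr519 and Vmn2r102. Vmn2r96 (chr17:18573151-18616003, plus strand, GRCm38), a vomeronasal receptor gene, had 20769, 9771, 25215 and 28704 normalised counts in NT, 20501, 48334, 10619 and 23719 in DRB, 5684, 6158, 13790 and 9716 in DkkMo and 8406, 14237, 13091 and 11953 in combination tumours. Its 4 groups overlapped except that each NT and DRB value but the lowest exceeded all DkkMo values. The difference of DkkMo from NT was -1.23 ± 0.48 on the log2 scale (SE; limma adjusted p = 0.328; exact permutation p = 0.0571). The genes whose deposited values ran most like those of Vmn2r96 over the 16 tumours were Prkdc (Pearson r 0.86), 4930452B06Rik (0.85) and Castor2 (0.85).

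Olfr519 (chr7:108893461-108894420, minus strand) is annotated as a single exon of 960 bases, yet it held 1213 to 40991 reads in every tumour. Its normalised counts were 4757, 12638, 9871 and 1423 in NT, 7396, 4125, 2197 and 10633 in DRB, 6042, 5455, 10969 and 11052 in DkkMo and 10424, 15197, 7016 and 9162 in combination tumours, so that all groups overlapped. Per kilobase of exon this is a mean of 8356, against 2454 for Vmn2r96, 1109 for Vmn1r76, 508 for Vmn2r76 and 448 for Vmn2r102. Of the 31-base words of Olfr519, 48.6% occur in another annotated gene. In none of the 4 comparisons did any of these 5 genes pass the test, with the smallest adjusted p at 0.225.

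The genes that varied least were Vmn2r7, Olfr749, Vmn1r13, Olfr150 and Olfr30, chosen as the lowest SD among genes with reads in all 16 tumours (0.49 to 0.52). Olfr150 (chr9:39730978-39738456, plus strand) had 4206, 5916, 4790 and 9017 normalised counts in NT, 19434, 5182, 8652 and 9558 in DRB, 6615, 6044, 8465 and 4792 in DkkMo and 7861, 7432, 6882 and 8475 in combination tumours. DRB replicate 1 apart, its values stayed between 4206 and 9558. Vmn2r7 stayed between 3572 and 13940 and Vmn1r13 between 1699 and 5190 normalised counts. Olfr30 had few reads, from 1 to 249, and its deposited values are compressed near the floor of 6.23 that stands for no read, so its low SD is not a stable level: its counts ranged from 1.13 to 210.

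Neighbouring receptor genes were little correlated. Of the 258 placed genes, 82 (31.8%) lay on chromosome 7, 30 on chromosome 2, 27 on chromosome 17 and 26 on chromosome 9. For 88 pairs of listed neighbours that began under 100 kb apart, the median correlation of deviations from group means over 16 tumours was 0.05, against 0.01 for 28297 pairs on different chromosomes. No pair of neighbours exceeded 0.8, the closest being Olfr1364 and Olfr11 at 0.78, which were picked after their values were seen. In 17 of the 258 genes (6.59%), exons overlapped those of a gene outside the receptor families on either strand, and the strandedness of the counting was not given in the sources used here.

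The treatments were compared with limma, in 1 model of all 16 tumours on the deposited log2 values, with Benjamini-Hochberg adjusted p values taken over the whole table. A gene was called when it changed over 1.5-fold with an adjusted p under 0.05. The first question was whether DkkMo alone changed the tumours. Between DkkMo and NT, 0 receptor genes were called, as were 0 genes in all (0%), and at an unadjusted p below 0.05 there were 19 receptor genes (7.25%) against 12.3% of all genes. The smallest adjusted p of a receptor gene was 0.273 (Olfr675). The groups did not overlap for 12 receptor genes (4.58%) against 5.03% of all genes, with 7 higher with DkkMo (1.82% of all genes) and 5 lower (3.22% of all genes). The median difference of receptor genes was 0.07 and that of all genes -0.54. Since the median of all genes moved by more than 0.1, changes are also given relative to it, and which of these readings is right was not tested. Relative to that median, receptor genes stood 0.61 higher with DkkMo, mostly because the median of all genes was lower. This difference was 0.21 without NT replicate 4 and 0.22 with array weights. The count of 0 over all genes also rested on single tumours: without NT replicate 2, 222 genes were called, 0 of them receptor genes.

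DRB alone was set against NT in the same model. Between DRB and NT, 0 receptor genes and 0 of all genes (0%) were called, and an unadjusted p below 0.05 was found for 38 receptor genes (14.5%) against 11.9% of all genes. The smallest adjusted p of a receptor gene was 0.166 (Olfr905). The groups did not overlap for 18 receptor genes (6.87%) against 4.07% of all genes, with 12 higher with DRB (2.98% of all genes) and 6 lower (1.09% of all genes). The median difference was 0.27 for receptor genes and 0.28 for all genes. Receptor minus all genes was -0.01, and it ran from -0.31 without NT replicate 4 to 0.17 without NT replicate 2. Without NT replicate 4, 139 of all genes were called, 126 of them higher with DRB, and 1 receptor gene was called lower. Vmn1r208 was higher in all 4 DRB tumours than in all NT tumours (2.26 ± 0.72, adjusted p = 0.22) and lower in all 4 DkkMo tumours (-1.48 ± 0.72, adjusted p = 0.406), and neither passed the test. These comparisons share the NT tumours.

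Of the 4 comparisons, that of the combination with DRB was the one with called receptor genes. Between combination and DRB tumours, 12 receptor genes (4.58%) were called, against 926 of all genes (7.35%). They were 6 Olfr, 5 Vmn2r and 1 Vmn1r gene, 3 higher in the combination (1.15% against 0.429% of all genes) and 9 lower (3.44% against 6.92%). At an unadjusted p below 0.05 there were 56 receptor genes (21.4%) against 26.2% of all genes, and the groups did not overlap for 34 (13.0%) against 20.4% of all genes, with 8 higher (2.07% of all genes) and 26 lower (18.3% of all genes). The median difference was -0.13 for receptor genes and -0.71 for all genes, which leaves receptor genes 0.58 higher relative to all genes. The split depended on scaling, for receptor genes as for the whole table. When each library was centred on its median, 9 receptor genes were higher and 2 lower, and 173 of the 471 genes called in all were higher, against 54 of 926 as deposited. After quantile normalisation 11 were higher and 2 lower, and in all 285 of 725 were higher. When voom was run on recovered reads scaled by total reads, 50 were higher and 2 lower, and in all 2101 of 2275 were higher. With voom on recovered reads and the size factors, 0 receptor genes and 0 of all genes were called, with 50 receptor genes and 2647 of all genes at an unadjusted p below 0.05. Without DRB replicate 1, or without any 1 of the 4 combination tumours, 0 receptor genes were called higher. Without DRB replicate 2, 3 or 4 there were 2, 2 and 5. Over all genes, higher calls fell from 54 to 8 without DRB replicate 1 and to 4 to 11 without a combination tumour. The loss thus did not rest on a single combination tumour. With 1 tumour left out, the lowest differences of the 3 higher genes were 2.58 (Vmn2r45), 2.78 (Olfr532) and 2.55 (Olfr905). In all 12 called genes the combination and DRB tumours did not overlap, so leaving out a tumour could not turn the direction. In the other settings the direction did not turn either. The calls themselves held less well, from 7 of 27 settings for Vmn2r61 to 26 of 27 for Olfr318 and Vmn1r208.

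Among the called genes the largest falls were those of Olfr318, Vmn1r208 and Olfr545. Olfr318 (chr11:58717197-58724014) had 3527, 2647, 1127 and 964 reads in the DRB tumours and 2, 1, 0 and 3 in the combination tumours, with 961, 9, 7 and 1887 in NT and 338, 167, 0 and 0 in DkkMo. The DRB tumours were high and the combination tumours at or near no read, and NT was split. Its difference was -5.08 ± 1.05 on the deposited log2 scale (limma adjusted p = 0.00858; exact permutation p = 0.0286, the smallest that 4 against 4 allows). That scale understates changes of genes with few reads.

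Vmn1r208 (chr13:22771474-22777400) had 3674, 1079, 553 and 838 normalised counts in DRB tumours and 6.15, 5.05, 7.07 and 1.43 in combination tumours. NT tumours lay between, at 280, 29.9, 52.2 and 480, and DkkMo tumours at 23.9, 17.5, 1.23 and 0. Its exons overlap those of Gm11314. The groups compared were far apart, with a difference of -3.80 ± 0.72 (limma adjusted p = 0.00448, the smallest among receptor genes).

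Olfr545 (chr7:102491466-102499573) had 8174, 1171, 1073 and 1186 normalised counts in DRB and 33.8, 460, 31.4 and 20.7 in combination tumours. In each group 1 tumour stood above the other 3, but the groups did not overlap. The difference was -3.37 ± 0.93 (limma adjusted p = 0.0354). In NT tumours it had 937, 28.7, 19.3 and 562 and in DkkMo tumours 29.9, 67.1, 2.47 and 0.904.

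The 3 called genes that were higher in combination tumours were Vmn2r45, Olfr532 and Olfr905. Vmn2r45 (chr7:8469563-8489075) had 19.5, 294, 102 and 499 normalised counts in DRB and 2056, 2562, 2017 and 2311 in combination tumours (3.00 ± 0.78, limma adjusted p = 0.0273). The combination tumours were close together, and the NT tumours, at 524, 2232, 1694 and 225, overlapped both groups. Of its 31-base words 81.4% occur in another gene, and whether its reads belong in part to paralogues was not tested. Olfr532 (chr7:140415710-140421639) had 34.7, 22.3, 72.6 and 50.04 in DRB and 741, 1574, 757 and 1432 in combination tumours (2.95 ± 0.82, limma adjusted p = 0.0362). Olfr905 (chr9:38471107-38477013) had 4.34, 98.1, 50.4 and 221 in DRB and 1956, 445, 1073 and 2285 in combination tumours (2.88 ± 0.86, limma adjusted p = 0.0475). For both, no DRB tumour reached the lowest combination tumour, and DkkMo tumours were also above all DRB tumours for Olfr905, at 1529, 338, 880 and 389. All NT tumours were above all DRB tumours for Olfr905 too (DRB minus NT -3.45 ± 0.86, limma adjusted p = 0.166). Mean deposited values of Olfr905 were 11.01 in NT, 7.56 in DRB, 9.66 in DkkMo and 10.43 in combination tumours. Those of Olfr532 were 8.91, 7.29, 9.39 and 10.24 in the same order, and its NT tumours overlapped the DRB tumours.

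The other 6 called genes fell: Vmn2r110, Vmn2r58, Vmn2r73, Olfr374, Olfr1295 and Vmn2r61, of which Vmn2r110 was also in both tables and the rest were named once their values were known. Their differences ran from -3.06 to -2.02, with limma adjusted p values from 0.00918 to 0.0498, and in each every DRB tumour exceeded every combination tumour. Olfr1295 (chr2:111561423-111569681) had 475, 178, 636 and 572 normalised counts in DRB and 9.23, 4.21, 14.1 and 3.57 in combination tumours. Vmn2r110 (chr17:20567760-20596423) had 835, 2464, 557 and 1347 against 128, 96.8, 23.6 and 0, and its exons overlap the pseudogene Gm5145 on the opposite strand by 830 bases. Of the 12 called genes, 5 remained called with each library centred on its median.

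**Figure D4:**
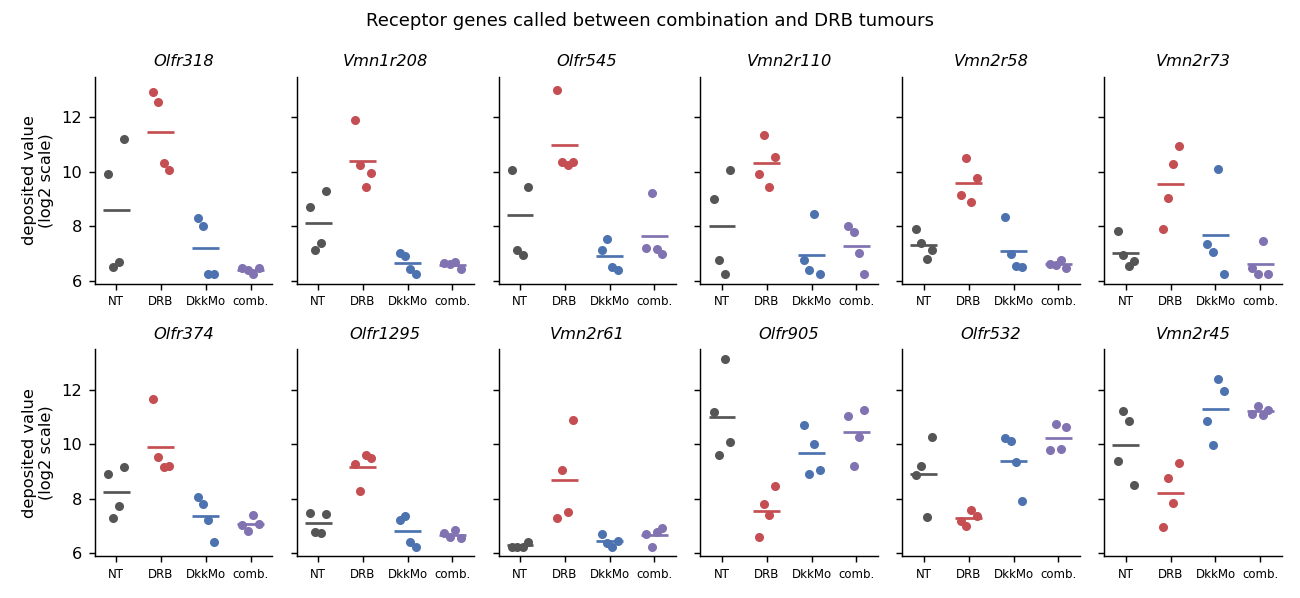
Deposited log2 values of the 12 receptor genes called between combination (comb.) and DRB tumours, for each of the 16 tumours (points) with group means (lines). The 9 genes that fell have their highest group mean in DRB, and in the 3 that rose no DRB tumour reaches the lowest combination tumour.

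Adding DRB to DkkMo gave no called gene. Between combination and DkkMo tumours 0 receptor genes and 0 of all genes (0%) were called. An unadjusted p below 0.05 was found for 6 receptor genes (2.29%) against 1.19% of all genes, and the groups did not overlap for 6 (2.29%) against 2.93%, with 2 higher (1.38% of all genes) and 4 lower (1.55% of all genes). The medians were 0.01 for receptor genes and -0.03 for all genes. The difference between the effect of DkkMo with DRB and without it was also tested in the same model, and 0 receptor genes and 0 of all genes were called, with 24 receptor genes (9.16%) against 6.77% of all genes at an unadjusted p below 0.05.

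The partners of these receptors in signalling were only partly listed. Of 14 olfactory transduction genes, 8 were listed in the tumours, including Gnal, Adcy3 and the channel subunit Cngb1, but the channel subunits Cnga2 and Cnga4, the olfactory marker protein Omp and the receptor transporters Rtp1 and Rtp2 were not. Of 11 vomeronasal transduction genes, only Gnao1, a G protein subunit used widely in neurons, was listed, and Trpc2 was not. Of 12 taste transduction genes, 7 were listed, with the G protein subunit Gnat3 but not the channel Trpm5. Of these 16 listed genes, 0 were called in the comparisons of DkkMo with NT, DRB with NT and the combination with DkkMo. Between combination and DRB, Pou2f3, a transcription factor of taste and tuft cells, was called higher (2.86, limma adjusted p = 0.0275), and Adcy3 did not pass (-3.50, limma adjusted p = 0.0633).

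Other lists give the setting. Genes of other tissue-restricted families, the defensins, keratin-associated proteins and late cornified envelope proteins (Defb, Krtap and Lce), had 7 members listed, of which Defb7 (-3.54) and Defb9 (-4.67) were called lower in combination than in DRB tumours (limma adjusted p = 0.0181 and 0.00421), where 6.92% of all genes were called lower. In that comparison Eef1a1 (-7.35), Pvalb (-4.03), a calcium-binding protein of fast muscle, and the leukocyte gene Ptprc (-3.98) were also called lower, each the only called gene of its list (3 of 10 housekeeping, 1 of 12 skeletal muscle and 6 of 11 macrophage genes listed). None of the 11 bone and sarcoma, 4 blood and marrow, 3 osteoclast and 8 endothelium genes listed was called in any comparison. The macrophage genes together held 0.0240 to 0.110% of the reads of DRB tumours and 0.0332 to 0.0447% of those of combination tumours. The part of these differences in the receptor results was not tested.

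In the cultures, far fewer receptor genes were listed and most had few reads. The 20 were 13 Olfr, 3 Vmn2r, 2 Vmn1r and 2 Tas1r genes. The median of their means was 20.7 normalised counts, against 558.7 over all listed genes, and 14 of the 20 had a mean under 50. The cultures and tumours were normalised apart, so levels were not compared between them. Those in both tables were Vmn2r110, Vmn2r57, Olfr56 and Olfr1372-ps1, which is 4 of 20 (20.0%) of the culture list and 1.53% of the tumour list. The 5 with the most reads in the cultures were Tas1r3, Olfr56, Vmn2r57, Vmn1r112 and Olfr1372-ps1.

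Tas1r3, the subunit shared by the sweet and umami taste receptors, was the most read and the most even. Its normalised counts were 675 ± 15.2 in log phase NT, 634 ± 45.7 with DkkMo and 603 ± 12.1 with scrMo, and 624 ± 35.3, 698 ± 50.9 and 577 ± 32.4 under nutritional stress in the same order (SD, n = 3 each). Its exons overlap those of Dvl1, on the opposite strand, by 36 bases. Tas1r1, the umami subunit, had a mean of 27.4. Neither was listed in the tumours.

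Olfr56 (chr11:48978889-49135387, plus strand) varied most of the 5. In log phase its normalised counts were 893, 951 and 1023 in NT, 713, 1003 and 716 with DkkMo and 321, 190 and 210 with scrMo. Under nutritional stress they were 38.4, 51.8 and 40.8 in NT, 136, 140 and 144 with DkkMo and 165, 149 and 135 with scrMo. Thus all log phase NT and DkkMo cultures lay above all others, and stressed NT cultures below. Over the 18 cultures, the genes whose deposited values ran most like it were Ifit3b (Pearson r 0.99), Ssbp2 (0.99) and Irgm2 (0.99), a search made once its values were known. Its annotated exons overlap 111 bases of Ifi47 on the same strand, and Ifi47 was not listed. In the tumours Olfr56 was among the least even receptor genes: NT replicate 4 held 40482 normalised counts, 62.8% of its total, whereas the other 15 tumours had 229 to 5779.

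Olfr1372-ps1, a pseudogene, went the other way, with 44.9 ± 2.20, 29.1 ± 8.94 and 20.0 ± 12.3 normalised counts in log phase NT, DkkMo and scrMo cultures and 68.1 ± 8.63, 129 ± 9.92 and 183 ± 20.1 under stress. All stressed cultures lay above all log phase cultures. Vmn2r57, whose exons overlap those of Gm20449 by 2141 bases, ranged from 200 to 356 and Vmn1r112 from 129 to 251 over the 18 cultures. Vmn2r57 was well read in the tumours too, with 2334 to 17925 normalised counts. No test was made in the cultures.

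**Figure D5:**
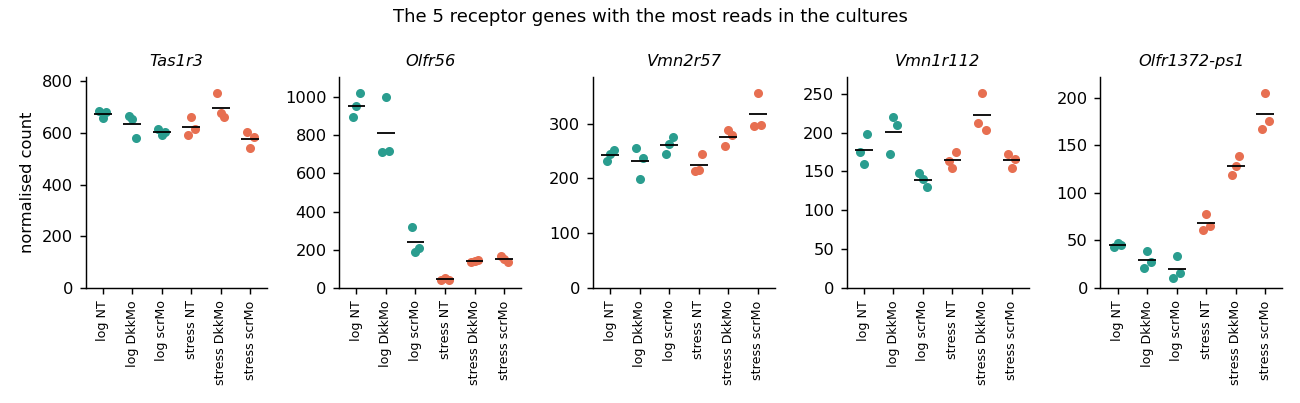
Normalised counts of the 5 receptor genes with the most reads in the cultures, for each of 3 libraries a group (points; log phase in green, nutritional stress in orange) with group means (lines), axes from 0. Tas1r3 is even across groups (542 to 756), Olfr56 is highest in log phase NT and DkkMo, and Olfr1372-ps1 is highest under stress.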

How the data were processed

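RNA was sequenced from 16 tumours (4 groups of 4) and 18 cultures (6 groups of 3). The authors aligned the reads to GRCm38 with HISAT2 (2.1.0 per the labels), counted them per gene with featureCounts, and deposited variance-stabilised log2 values from DESeq2, made for each table apart. The rule for listing genes and the strandedness are not given in the sources used here. The transformation was reversed from the lowest value of each table, which gave whole reads (within 0.05) for 96.9 to 99.6% of tumour values and 100% of culture values, and size factors per library. Of 16576 culture rows, 14 that spanned over 6 within a group were set aside. Differences are of group means, tested with limma 3.58.1 (R 4.3.3) with a trend of the variance, over all 12595 genes. Exact permutation tests were two-sided. The labels name 4 specimens a tumour group, and p values measure only the spread between them. Lengths, overlaps and sequences are from GENCODE vM21 for GRCm38. Not every sequence window is reported here. Tables were made with Python 3.11.15.

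Genes were named by rule, as the called genes with the 3 greatest rises and the 3 greatest falls of a comparison, the highest-mean gene's 3 most alike genes, the 5 highest means, the 5 lowest SDs, the 5 most read in cultures and those in both tables. Members and lists were chosen with earlier results of these data known, and no list is independent evidence. The 11 lists are olfactory, vomeronasal and taste transduction, bone and sarcoma, housekeeping, skeletal muscle, blood and marrow, macrophage, osteoclast, endothelium, and Defb, Krtap and Lce genes. Results were recomputed without the trend, as log2 of the count plus 1, with the 2 groups alone, with median centring, quantile normalisation, array weights, other filters, and each tumour left out. Added after seeing the data was limma voom on recovered reads.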

Additional observations from a re-analysis of the deposited data

Results flagged for a closer look

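Among the 4 tumours of a group, a value was set apart when its gap to the nearest other value was a larger part of the group's range than Dixon's critical value for 4 values allows. This held for 6 of 112 groups of values examined, and chance alone gives about 1 in 20. In the NT group, replicate 3 had a summed normalised count of 557932 over the receptor genes, against 275976 to 309611 in the other 3 tumours. In the DRB group, replicate 2 had 504567, against 339265 to 364462. DRB replicate 1 stood above the other DRB tumours for Olfr545 (deposited value 13.02 against 10.25 to 10.38) and for Olfr374 (11.67 against 9.17 to 9.53). Combination replicate 2 stood above for Olfr545 (9.23 against 6.98 to 7.18). NT replicate 4 had a value of 6.41 for Vmn2r61, which is 1 read, where the other 3 NT tumours had none and stood at 6.23.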

How the results depend on the processing

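No paired analysis was possible because the tumour groups share no replicate numbers in the labels and no test was made in the cultures. Between combination and DRB, the 12 receptor calls (926 over all genes) became 25 (1670) with array weights, 2 (522 of 6297 tested) with only genes above the median mean, 0 (0) with voom on recovered reads and 52 (2275) with voom scaled by total reads, and 4 to 24 (242 to 2205) with 1 tumour left out (24 without NT replicate 4, 4 without combination replicate 1, 3 or 4, 5 without combination replicate 2 and 7 without DRB replicate 2; 242 over all genes without DRB replicate 1). The cause was not tested. In the other comparisons the count of receptor genes stayed at 0 in every setting, except 1 for DRB against NT without NT replicate 4. Summed in RPM, the log2 ratio turned to 0.59 for DkkMo against NT, -1.28 for DRB against NT and 2.01 for combination against DRB. Median receptor genes with reads fell to 225 (NT), 224.5 (DRB), 216.5 (DkkMo) and 223 (combination) at 10 reads or more. At the depth of the shallowest library they were 242.9, 241.7, 238.4 and 242.4 in the same order. With pseudogene symbols added they rose to 285.5, 281.5, 267.5 and 274. The median of receptor genes minus that of all genes ranged from 0.36 to 0.97 for combination against DRB, from 0.21 to 0.86 for DkkMo against NT, from -0.31 to 0.17 for DRB against NT and from -0.03 to 0.08 for combination against DkkMo. With 4 tumours a group and few reads for many of these genes, smaller changes were not detectable.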
